A study of Mus musculus with 9 samples.

Results

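The neutrophil granule genes described here are 10 of the 29410 genes tested, read by 12 of the 56585 probes kept, and they were chosen by name. Elane, Mpo, Prtn3 and Ctsg code for proteins of the primary granules, and Ltf, Camp, Ngp, S100a8, S100a9 and Lcn2 for proteins made later in neutrophil maturation. Their RNA was measured in bone marrow megakaryocyte preparations (mMKs) of male mice 1 and 3 days after ionizing radiation (1 dpi and 3 dpi) and in controls (Ctrl), with 3 single-colour Agilent arrays in each group, although the methods name an Affymetrix chip. Irradiated mice were given 5 Gy of γ-rays to the whole body in a single exposure from a cobalt source, and control mice were sham-irradiated, as the methods state. The labels give no strain and no age, whereas the methods list wild-type C57BL/6 mice among those irradiated. Marrow cells had been enriched for CD41 and then for CD42d, both platelet-lineage surface proteins, and the arrays of a group came from separate experiments on different donors.

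Neutrophil granules are filled in sequence as the cell matures. Promyelocytes make the primary granules, which carry serine proteases and myeloperoxidase, and myelocytes and metamyelocytes then make the specific granules, after transcription of the primary-granule genes has fallen. S100a8 and S100a9 form calprotectin, an abundant protein of the neutrophil cytosol that binds calcium, zinc and manganese, so these later genes do not code for granule proteins in the strict sense.

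Among the primary-granule genes, Elane (neutrophil elastase), Prtn3 (proteinase 3) and Ctsg (cathepsin G) code for serine proteases, and Mpo codes for myeloperoxidase, which makes hypochlorous acid. Among the later genes, Ltf codes for the iron-binding protein lactoferrin, Camp for the precursor of an antimicrobial cathelicidin peptide, Ngp for a granule protein related to the cystatins, and Lcn2 for lipocalin 2, which binds bacterial siderophores. On mm9, Elane was read at chr10:79350902-79350961 and Prtn3 at chr10:79343869-79344685, neighbouring genes on the plus strand. S100a8 was read at chr3:90473778-90473837 on the plus strand and S100a9 at chr3:90496573-90496632 on the minus strand, also close together. Mpo (chr11:87617102-87617877, plus strand, and a second probe at chr11:87615121-87615180) and Lcn2 (chr2:32240199-32240258, minus strand, and a second probe at chr2:32241037-32241281) each had 2 probes. The remaining probes lay at chr14:56718795-56718854 (Ctsg, minus strand), chr9:110942873-110942932 (Ltf, plus strand), chr9:109749911-109749970 (Camp, minus strand) and chr9:110324266-110324814 (Ngp, plus strand).

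The promoters of the 4 primary-granule genes shared letters that most later genes lacked. These letters were chosen with the sequences in view, so that division was fixed by the choice. Stretches around them are shown as description only. In RefSeq sequence of GRCm38.p6, all 10 members matched a promoter, and the 250 bases before each start were searched on both strands for AGGAAGT, which holds the GGAA core known from binding sites of ETS-family factors. These letters, in capitals, were present in 4 of the 4 primary-granule promoters, in 1 of the 6 later ones (S100a8, as ACTTCCT on the opposite strand) and in 2525 of 32851 promoters in all (7.69%). The stretches are given along each gene's own strand, at chr10:79886198-79886264 (Elane, plus), chr11:87793534-87793597 (Mpo, plus), chr10:79879543-79879609 (Prtn3, plus), chr14:56102744-56102810 (Ctsg, minus) and chr3:90668869-90668935 (S100a8, plus).
Elane: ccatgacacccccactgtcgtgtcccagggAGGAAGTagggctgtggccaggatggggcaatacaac
Mpo: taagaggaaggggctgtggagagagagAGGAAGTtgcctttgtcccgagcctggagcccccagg
Prtn3: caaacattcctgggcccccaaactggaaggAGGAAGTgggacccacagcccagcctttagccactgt
Ctsg: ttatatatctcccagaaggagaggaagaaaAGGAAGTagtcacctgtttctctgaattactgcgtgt
S100a8: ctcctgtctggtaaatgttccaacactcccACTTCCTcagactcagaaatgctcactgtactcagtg

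The letters TTGCNNAA, a spacing known from binding sites of C/EBP-family factors, divided the classes the other way. They were present in 0 of the 4 primary-granule promoters, in 4 of the 6 later ones (Ltf, Ngp, S100a9 and Lcn2) and in 3142 of the 32851 promoters (9.56%). Camp held neither set of letters in its 250 bases, and Ngp held TTGCNNAA 2 times, 138 to 131 and 11 to 4 bases before its start. The stretches of the other 3, with the match in capitals, lie at chr9:111019187-111019254 (Ltf, plus, match on the opposite strand), chr3:90695920-90695971 (S100a9, minus) and chr2:32387918-32387985 (Lcn2, minus). Both sets of letters were chosen with the sequences in view, and a match describes the letters only.
Ltf: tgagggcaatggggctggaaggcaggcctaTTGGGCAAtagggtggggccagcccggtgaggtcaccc
S100a9: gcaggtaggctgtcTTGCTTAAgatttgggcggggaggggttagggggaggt
Lcn2: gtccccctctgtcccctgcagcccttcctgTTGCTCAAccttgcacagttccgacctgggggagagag

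All 12 probes of the granule genes were well above background on all 9 arrays, and no probe was flagged as saturated. The brighter Mpo probe ranked from 2 to 7 among the 56585 probes over the 9 arrays. Whether signals so bright keep step with the amount of RNA was not tested. Before any scaling, S100a8 measured 16.77, 17.66 and 17.68 (log2 intensity) in Ctrl, 17.48, 17.50 and 17.46 at 1 dpi and 17.56, 17.56 and 17.63 at 3 dpi, so only Ctrl replicate 1 stood apart. Ctrl replicate 1 was the dimmest control array for all 10 genes and the only array on slide 1, with the other 8 on slide 2. Whole arrays differed as well: the 75th percentile of log2 intensity, an array's brightness, was 10.03, 10.62 and 10.66 in Ctrl, 9.33, 9.45 and 9.43 at 1 dpi and 10.37, 10.55 and 10.53 at 3 dpi. Well above background were 69.1%, 79.5% and 80.8% of probes in Ctrl, 72.3%, 74.8% and 75.6% at 1 dpi and 81.8%, 81.6% and 81.8% at 3 dpi. By its 75th percentile each 1 dpi array was thus dimmer than every other array, and levels below are log2 intensities minus the array's own 75th percentile unless another scaling is named. In a preparation of many cells, fewer cells of a type and less RNA per cell cannot be told apart.

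Of the megakaryocyte markers, 18 of 18 were well above background on all 9 arrays, among them Pf4 (platelet factor 4), Itga2b (CD41) and Gp5 (CD42d). So were 12 of 12 macrophage and 10 of 10 stromal and endothelial markers, and presence alone therefore does not bear out the label of the preparation. The summed level of the megakaryocyte markers was 7.58, 7.42 and 7.40 in Ctrl, 7.44, 7.33 and 7.30 at 1 dpi and 7.53, 7.51 and 7.49 at 3 dpi, with Pf4 the brightest. The granule genes were bright in the control mMKs too, where the summed level was 8.99, 8.93 and 8.94 for the 4 primary-granule genes, led by Mpo, and 9.68, 9.80 and 9.77 for the 6 later genes, led by Camp. Intensity depends on the probe as well as on the RNA, so these levels carry no order between genes.

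How the primary-granule genes moved at 1 dpi depended on the scaling. Under quantile normalization Mpo (−0.0009) and Ctsg (−0.018) hardly moved, while Elane was lower (−0.43, limma adjusted p = 0.0012) and Prtn3 was at −0.12. Unscaled, Elane (−0.86) and Prtn3 (−0.97) fell further than Mpo (−0.12) and Ctsg (−0.34). With the 75th percentile as the scale, Mpo by its brighter probe and Ctsg stood well above their control levels, whereas Elane and Prtn3 moved little. Mpo measured 7.76, 7.67 and 7.73 in Ctrl, 8.72, 8.60 and 8.58 at 1 dpi and 7.84, 7.64 and 7.67 at 3 dpi. Every 1 dpi array exceeded every other array for this brighter Mpo probe, while Ctrl and 3 dpi overlapped. The second Mpo probe measured 6.31, 6.09 and 6.03 in Ctrl and 6.34, 6.42 and 6.45 at 1 dpi. At 3 dpi that probe measured 5.87, 5.87 and 5.94, so its 3 groups did not overlap. Ctsg measured 7.19, 7.23 and 7.19 in Ctrl, 7.94, 7.87 and 7.88 at 1 dpi and 7.44, 7.30 and 7.35 at 3 dpi, so its 3 groups did not overlap and 3 dpi lay between the others. Elane measured 6.98, 6.84 and 6.86 in Ctrl, 7.06, 7.03 and 7.13 at 1 dpi and 6.90, 6.78 and 6.82 at 3 dpi, a narrow range in which 1 dpi lay just above the others. Prtn3 measured 4.23, 4.26 and 4.19 in Ctrl, 4.27, 4.28 and 4.33 at 1 dpi and 4.37, 4.49 and 4.52 at 3 dpi. Prtn3 was the only member whose highest arrays were those of 3 dpi, with no overlap between the 3 groups.

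Of the later genes, S100a8 and S100a9 showed the widest separation of 1 dpi from the other groups on this scale. S100a8 measured 6.74, 7.03 and 7.02 in Ctrl, 8.15, 8.05 and 8.03 at 1 dpi and 7.20, 7.01 and 7.09 at 3 dpi. S100a9 measured 7.24, 7.45 and 7.35 in Ctrl, 8.50, 8.35 and 8.24 at 1 dpi and 7.51, 7.32 and 7.51 at 3 dpi. For both calprotectin genes, every 1 dpi array lay above every other array, and Ctrl and 3 dpi overlapped. Camp measured 7.52, 7.58 and 7.59 in Ctrl, 8.19, 8.08 and 8.08 at 1 dpi and 7.66, 7.51 and 7.60 at 3 dpi. Ltf measured 7.11, 7.23 and 7.19 in Ctrl, 7.71, 7.64 and 7.62 at 1 dpi and 7.28, 7.08 and 7.18 at 3 dpi. These specific-granule genes also separated 1 dpi from both other groups, by a smaller step, and Lcn2 by a smaller one still. Lcn2 measured 7.43, 7.19 and 7.24 in Ctrl, 7.68, 7.63 and 7.67 at 1 dpi and 7.40, 7.28 and 7.35 at 3 dpi. Ngp measured 6.13, 6.59 and 6.50 in Ctrl, 6.48, 6.39 and 6.40 at 1 dpi and 6.39, 6.31 and 6.35 at 3 dpi. Ngp was the only member whose Ctrl and 1 dpi arrays overlapped, because Ctrl replicate 1 lay below and the other 2 control arrays above all arrays of both irradiated groups.

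**Figure D1:**
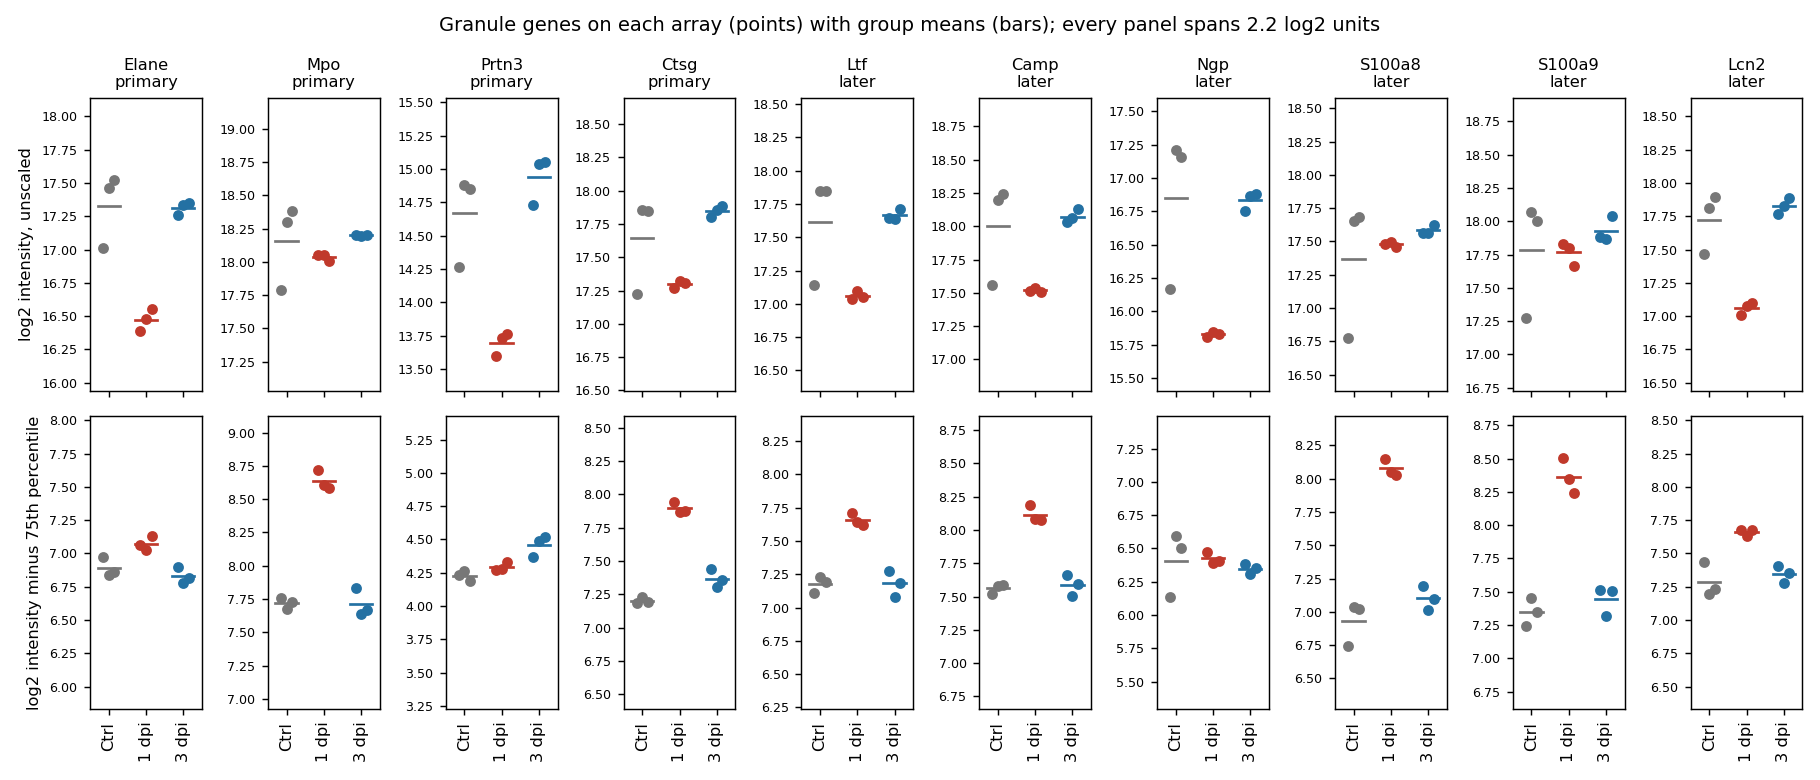
Log2 intensity of the 10 granule genes on each of the 9 arrays, unscaled in the top panels and after subtraction of the array's 75th percentile in the lower panels; points are arrays, bars are group means, and each panel spans the same number of log2 units. On the scaled values 1 dpi stands above Ctrl without overlap for 9 of 10 genes, and the groups do not overlap for 67.5% of all genes. Unscaled, the 1 dpi arrays of S100a8 (17.48, 17.50 and 17.46) lie within the range of the control arrays.

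At 1 dpi, 2 of the 10 granule genes passed the call used throughout, an adjusted p under 0.05 in limma with at least a 2-fold change, and both were calprotectin genes. S100a8 was 2.21-fold higher than in Ctrl (log2 fold change 1.14, SE 0.097, limma adjusted p = 6.93e-05, n = 3 arrays a group). S100a9 was 2.03-fold higher (1.02, SE 0.098, limma adjusted p = 0.000122), just past the minimum, and was not called without Ctrl replicate 1 (0.97) or without 1 dpi replicate 1 (0.95). Mpo (0.92, SE 0.074, limma adjusted p = 5.54e-05) and Ctsg (0.69, SE 0.059, adjusted p = 7.12e-05) were higher by less than 2-fold, and the second Mpo probe gave 0.26 (adjusted p = 0.0343). Camp (0.55, SE 0.066, limma adjusted p = 0.000335), Ltf (0.48, SE 0.071, adjusted p = 0.000926) and Lcn2 (0.37, SE 0.078, adjusted p = 0.005) followed, with 0.38 from the second Lcn2 probe. Elane passed the adjusted p narrowly (0.18, SE 0.066, limma adjusted p = 0.0487). It missed it without any 1 array other than Ctrl replicate 1 or 3 dpi replicate 1 (limma adjusted p from 0.0687 to 0.143). Prtn3 (0.065, SE 0.062, limma adjusted p = 0.387) and Ngp (0.016, SE 0.12, adjusted p = 0.912) did not pass it. These directions hold for this scaling and, as given with the other scalings, turn for 8 of the 10 genes under quantile normalization.

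Set against all genes, the counts at 1 dpi were 2 of 10 granule genes called higher where 12.3% of all genes were, and 0 called lower where 2.87% were. Past the adjusted p alone were 8 of 10 granule genes higher against 34.8% of all genes, and 0 lower against 21.1%. At an unadjusted p under 0.05 in limma 0 of the 10 were lower, where the shares of all genes are at least as large. These counts hold for the 75th percentile: 2 were higher and 5 lower (Elane, Ltf, Camp, Ngp and Lcn2) past the adjusted p both under quantile normalization and in the authors' table. They were 7 and 0 with normexp, 4 and 1 with array medians, 0 and 5 unscaled and 0 and 10 with the spike-ins. With the 75th percentile they were also 7 and 0 with a replicate block, only the 6 arrays compared or no filter on dim probes. The arrays of the groups did not overlap for 9 of 10 granule genes and for 67.5% of all genes. By class, 0 of 4 primary-granule genes and 2 of 6 later genes were called in limma, while 3 of 4 and 5 of 6 were higher past the adjusted p, as many as at an unadjusted p under 0.05. The median was 0.44 (log2) for the primary-granule genes, 0.52 for the later genes and 0.25 for all genes. Over the 4 scalings that give distinct values relative to the median of all genes, each class lay above that median in 1 only, the 75th percentile (−0.14 to 0.19 for primary and −0.22 to 0.27 for later). With 3 arrays against 3, the smallest two-sided p of an exact permutation test is 0.1, so a non-overlap has no smaller p of its own. The number of arrays limits the precision of each value.

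**Figure D2:**
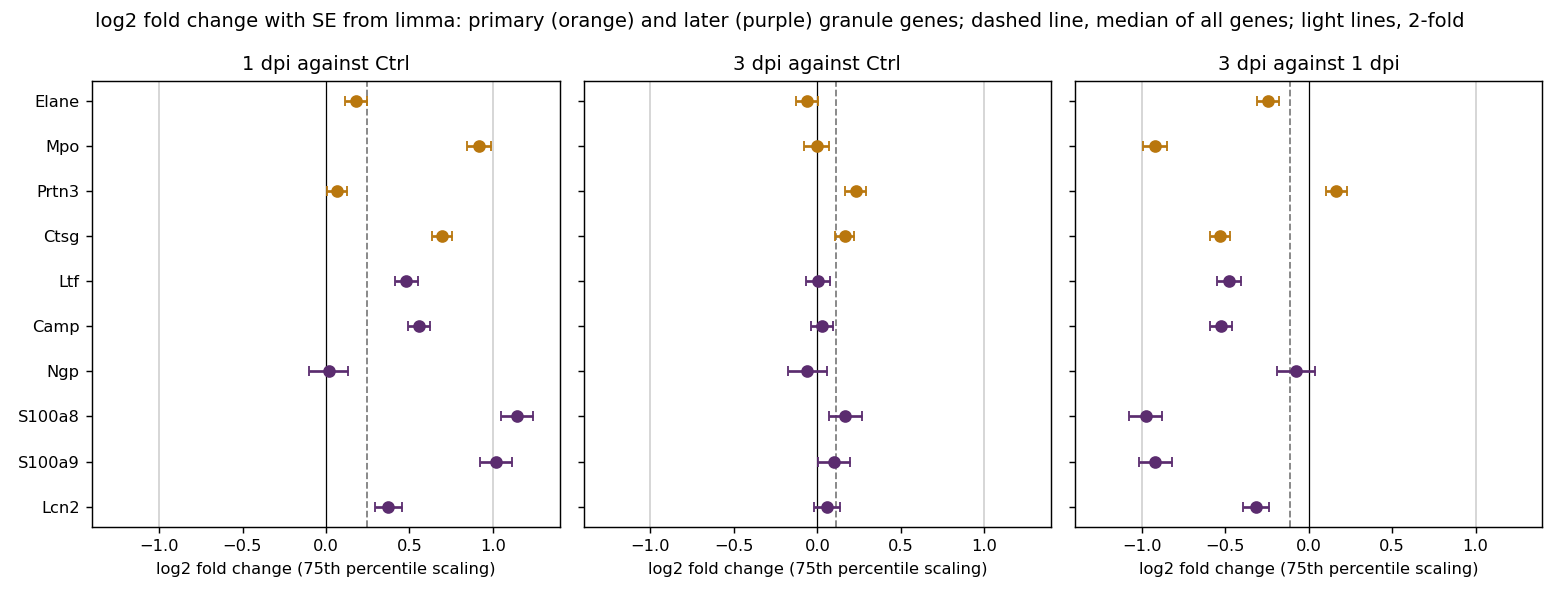
Log2 fold change with its standard error (limma, 3 arrays a group) of the 10 granule genes at 1 dpi and 3 dpi against Ctrl and at 3 dpi against 1 dpi, with primary-granule genes in orange and later genes in purple; the dashed line is the median of all genes and the light lines mark 2-fold. S100a8 (1.14) and S100a9 (1.02) pass 2-fold at 1 dpi, and no granule gene passes it in the other comparisons; under quantile normalization 8 of the 10 values at 1 dpi fall below 0.

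How the arrays were scaled decided the sign of most granule genes at 1 dpi. Over 7 scalings, the median over all genes at 1 dpi, as a log2 fold change, was 0.25 with the 75th percentile, 0.43 after normexp background correction, 0.00062 after quantile normalization, −0.017 in the log2 table of the authors, −0.067 with the array median, −0.79 unscaled and −1.43 with the spike-in controls. The number of granule genes above 0 at 1 dpi was 10, 8, 2, 2, 7, 1 and 0 in that order. S100a8 was above 0 in 6 of the 7 and S100a9 in 5. Relative to the median of all genes, 4 of the 7 scalings (75th percentile, array median, unscaled and spike-in) give the same value by construction, since each shifts a whole array by a constant. That leaves 4 distinct relative values, of which those from quantile normalization and the authors' table lie close together except for Mpo. S100a8 (0.41 to 0.90) and S100a9 (0.24 to 0.77) were above that median in 4 of the 4. Elane (−0.44 to −0.067), Prtn3 (−0.44 to −0.11) and Ngp (−0.53 to −0.23) were below it in 4 of 4. In the same terms, Mpo ranged from −0.17, which is the second probe in the authors' table, to 0.67, and Ctsg from −0.019 to 0.45. Camp (−0.24 to 0.31), Ltf (−0.21 to 0.23) and Lcn2 (−0.32 to 0.13) likewise had no fixed place.

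Most spike-in controls were brighter at 1 dpi, while the arrays as a whole were dimmer. For 8 of 10 spike-ins every 1 dpi array lay above every other array. The exceptions were the dimmest, which was not used, and the brightest (18.27, 18.21 and 18.17 at 1 dpi, 17.78, 18.33 and 18.35 in Ctrl), so the spike-ins did not rise alike over the range of signals. The mean log2 signal of the 9 used was 12.25, 12.54 and 12.57 in Ctrl, 13.15, 13.13 and 13.01 at 1 dpi and 12.48, 12.54 and 12.54 at 3 dpi. With the spike-ins as the scale, 0 of 10 granule genes were above 0 at 1 dpi and 6 were called lower in limma, S100a8 being at −0.53 and Ngp at −1.66. Of all 29410 genes tested, 21204 were called at 1 dpi with this scale, 1.25% of them higher. The part of total RNA amount, labelling and array brightness in the 1 dpi values was not tested.

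**Figure D3:**
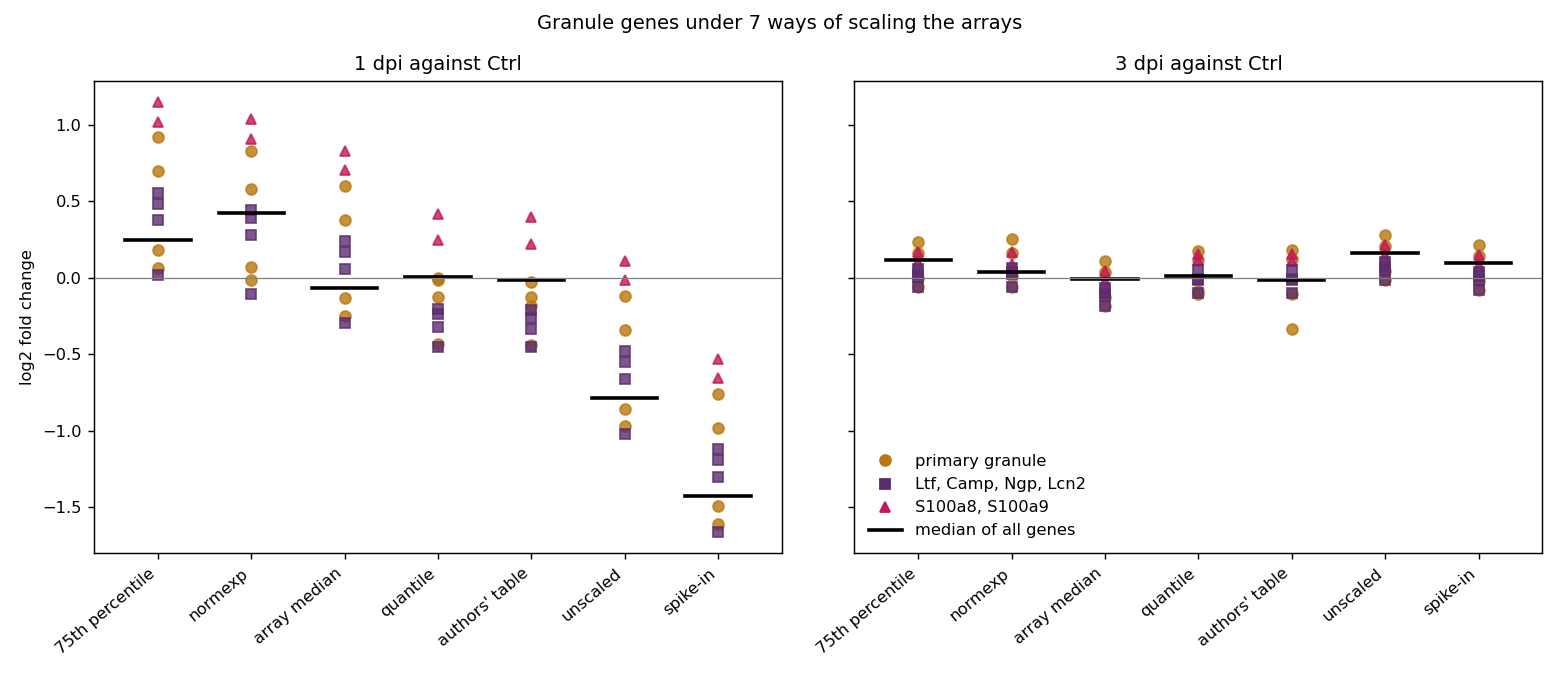
Log2 fold change at 1 dpi and 3 dpi against Ctrl of each granule gene under 7 ways of scaling the arrays, with triangles for S100a8 and S100a9 and a black bar at the median of all genes. At 1 dpi the genes move from all above 0 (75th percentile) to all below 0 (spike-in controls), and S100a8 and S100a9 lie above the black bar, a place that the 4 scalings by a constant per array cannot change.

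At 3 dpi 1 of the 10 granule genes passed the adjusted p with the 75th percentile as the scale, Prtn3. It was higher by 0.23 on the log2 scale (SE 0.062, limma adjusted p = 0.0254, n = 3 arrays a group), and it was above 0 in 7 of 7 scalings (0.11 to 0.27). It passed the adjusted p in 2 of the 7, the other being normexp, and not with only the 6 arrays compared (limma adjusted p = 0.0780). Without Ctrl replicate 2 or 3, or without 3 dpi replicate 2 or 3, Prtn3 no longer passed (limma adjusted p = 0.0533, 0.0791, 0.0897 and 0.0913). Ctsg was at 0.16 (SE 0.059, limma adjusted p = 0.0739), with no overlap between groups and a value above 0 in 7 of 7 scalings (0.039 to 0.21), of which it passed in 1, quantile normalization (limma adjusted p = 0.0301). S100a8 was also above 0 in each of the 7 (0.17, range 0.043 to 0.21), but its arrays overlapped with Ctrl and it did not pass (adjusted p = 0.237 in limma). The other 7 lay between −0.061 and 0.10: Elane −0.061, Ngp −0.060, Mpo −0.0043, Ltf 0.0053, Camp 0.027, Lcn2 0.058 and S100a9 0.10. Elane and Ngp were below 0 in all 7 scalings, and Ngp passed the adjusted p without Ctrl replicate 1 (−0.20, limma adjusted p = 0.0349). The sign of Mpo, Ltf, Camp, Lcn2 and S100a9 depended on the scaling. In the authors' table, which holds the second probe, Mpo was at −0.34 and passed as lower (limma adjusted p = 0.0365). The second probe of Mpo gave −0.25 (limma adjusted p = 0.0561) and that of Lcn2 0.19 (adjusted p = 0.0833), both without overlap.

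No granule gene was called at 3 dpi in limma (0 of 10 in either direction), where 6.98% of all genes were called higher and 1.82% lower. Past the adjusted p alone was 1 of 10 higher (Prtn3) against 16.9% of all genes, and 0 lower against 15.1%. At an unadjusted p under 0.05 in limma were 2 of the 4 primary-granule genes, both higher, and 0 of the 6 later genes. Every gene past the adjusted p is also past the unadjusted one, so at least 16.9% of all genes were higher and 15.1% lower there. These small counts carry no contrast between the classes. Also the methods' t-test called 0 of 10 with the 2-fold minimum. Arrays did not overlap for 2 of 10 granule genes against 47% of all genes, the 2 being Prtn3 and Ctsg. The class medians were 0.079 (primary) and 0.042 (later), beside 0.11 for all genes, but in the other 3 of the 4 distinct scalings both classes lay above all genes (−0.034 to 0.047 and −0.071 to 0.039 relative to them). Relative to the median of all genes, Prtn3 (0.11 to 0.21), Ctsg (0.050 to 0.20) and S100a8 (0.054 to 0.17) were higher in 4 of the 4 distinct scalings, and Elane, Mpo and Ngp lower in 4 of 4.

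Set directly against each other, 3 dpi was below 1 dpi for most granule genes with the 75th percentile as the scale. The 2 comparisons with Ctrl share the control arrays and this one shares the 1 dpi arrays, so the 3 sets of values are not independent. The log2 difference was −0.98 for S100a8 (SE 0.097, limma adjusted p = 0.000231), −0.92 for both Mpo (SE 0.074, adjusted p = 9.55e-05) and S100a9 (SE 0.098, adjusted p = 0.000306), and −0.53 for both Ctsg and Camp. The second Mpo probe gave −0.51 (limma adjusted p = 0.00222). Ltf (−0.48), Lcn2 (−0.32) and Elane (−0.24) also passed the adjusted p, though the second Lcn2 probe did not (−0.19, limma adjusted p = 0.0683), whereas Ngp (−0.076, adjusted p = 0.621 in limma) and Prtn3 (0.16, adjusted p = 0.0659) did not. Prtn3 did pass without Ctrl replicate 1 or 3 dpi replicate 1 (limma adjusted p = 0.0458 and 0.0253). Elane did not pass without 1 dpi replicate 1 or 3 or 3 dpi replicate 2 or 3 (0.052 to 0.0751), and Lcn2 did not without 3 dpi replicate 2 (0.0529). Prtn3 was the only one above 0, and it was so in 7 of 7 scalings, passing the adjusted p in 5 of them and called in 2 (unscaled and spike-in). Unscaled and with the spike-ins all 10 were above 0, and relative to the median of all genes Mpo (−0.81 to −0.10), S100a8 (−0.87 to −0.27) and S100a9 (−0.81 to −0.13) were lower in 4 of the 4 distinct scalings and Prtn3 (0.22 to 0.60) and Ngp (0.034 to 0.38) higher.

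In this comparison 0 of 10 granule genes were called in limma, where 3.97% of all genes were called higher and 4.82% lower, although S100a8 reached −1.03 and was called without 3 dpi replicate 1. Past the adjusted p alone were 8 of 10 lower against 24.9% of all genes, and 0 higher against 19.8%. Instead, 7 were higher and 1, S100a8, lower both under quantile normalization and in the authors' table. The numbers higher and lower were 1 and 7 with normexp, 0 and 5 with array medians, 7 and 0 unscaled and 10 and 0 with the spike-ins. At an unadjusted p under 0.05 in limma were the 8 lower genes and, higher, 1 of the 4 primary-granule genes, Prtn3. Of all genes, at least 24.9% were lower and 19.8% higher past that p. By the methods' t-test, too, 0 of 10 were called with the 2-fold minimum. Arrays did not overlap for 10 of 10 granule genes and for 65.5% of all genes. The medians were −0.39 for the primary-granule genes, −0.50 for the later genes and −0.11 for all genes. Relative to all genes, the primary median was above 0 in 3 of the 4 distinct scalings (−0.28 to 0.20) and the later one in 2 (−0.39 to 0.20).

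Within the later class, S100a8 and S100a9 were set against the other 4 genes after their values were seen. They had the largest changes at 1 dpi, so a positive difference at that time was fixed by the choice, and only its size is described. A difference within an array is free of any scaling by a constant. The mean of S100a8 and S100a9 minus the mean of Ltf, Camp, Ngp and Lcn2, relative to its Ctrl mean, was −0.091, 0.065 and 0.026 in Ctrl, 0.78, 0.73 and 0.66 at 1 dpi and 0.14, 0.089 and 0.15 at 3 dpi. The 3 groups did not overlap, with 1 dpi highest and 3 dpi between, and over the 4 distinct scalings the group difference from Ctrl ranged from 0.63 to 0.73 at 1 dpi and from 0.12 to 0.15 at 3 dpi. S100a8 and S100a9 also exceeded the 4 primary-granule genes at 1 dpi, by 0.70, 0.63 and 0.53 relative to Ctrl on the 3 arrays (0.47 to 0.62 over the 4 distinct scalings). This difference was −0.18, 0.11 and 0.065 in Ctrl and 0.093, −0.019 and 0.083 at 3 dpi, so those groups overlapped. The 4 granule genes Ltf, Camp, Ngp and Lcn2 minus the primary-granule genes gave −0.087, 0.047 and 0.040 in Ctrl, −0.083, −0.10 and −0.13 at 1 dpi and −0.049, −0.11 and −0.067 at 3 dpi, so Ctrl replicate 1 overlapped with the irradiated arrays. For that pair of classes, the group difference was −0.16 to −0.11 at 1 dpi over the 4 distinct scalings and −0.076 to 0.018 at 3 dpi, where 1 of the 4 was above 0.

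For the whole classes, primary minus later was 0.12, −0.069 and −0.048 in Ctrl, −0.18, −0.14 and −0.087 at 1 dpi and 0.0019, 0.078 and 0.017 at 3 dpi. All 1 dpi arrays lay below all others, but the nearest of them and of the controls were closer to each other than the SD of either group (0.10 in Ctrl and 0.046 at 1 dpi). Taken as medians of fold changes, primary minus later was −0.081 at 1 dpi and turned to 0.15 under quantile normalization, to 0.082 in the authors' table and to 0.0089 without S100a8 and S100a9, an alternative chosen after seeing the data. Members of a class are not replicates, and no test was made of a class difference.

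**Figure D4:**
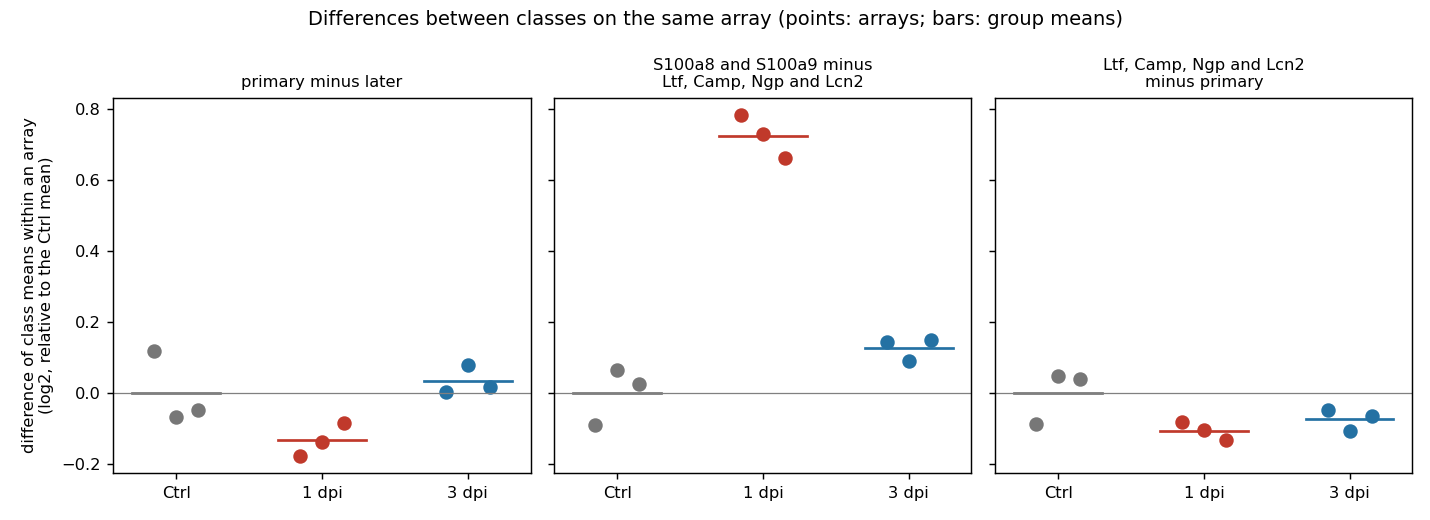
Differences between class means within each of the 9 arrays, in log2 units relative to the mean of Ctrl: primary minus later, S100a8 and S100a9 minus the 4 other later genes, and those 4 minus primary; points are arrays. The calprotectin difference is 0.66 to 0.78 at 1 dpi and at most 0.065 in Ctrl, a split chosen after the values were seen and above 0 in the 4 distinct scalings, whereas the arrays of Ctrl and 1 dpi overlap for the other later genes minus primary.

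With the 75th percentile as the scale, the brightest genes stood above the median of all genes at 1 dpi. Among the brightest 1% of genes (294 genes) were 8 of the 10 granule genes. The median of all genes at 1 dpi was 0.39 with no filter on dim probes and 0.25 as tested. It was 0.17 with probes well above background on all 9 arrays, so the change did not simply climb with brightness. The median of the 286 others of that stratum was 0.65 (log2) at 1 dpi, 0.054 at 3 dpi and −0.60 at 3 dpi against 1 dpi, although after quantile normalization the 1 dpi value was −0.019. At 1 dpi, S100a8 exceeded 93.4% of those 286 genes, S100a9 83.2%, Mpo 74.8% and Ctsg 55.6%. Camp exceeded 40.6%, Ltf 34.6% and Lcn2 25.9%, so their log2 fold changes of 0.55, 0.48 and 0.37 lay below the median of genes of like brightness. Elane exceeded 9.09%, Prtn3 4.20% and Ngp 2.80%, the last 2 being outside the stratum. At 3 dpi, Prtn3 (93.0%), S100a8 (85.7%) and Ctsg (84.3%) exceeded most of the 286, on differences of 0.16 to 0.23. S100a9 exceeded 66.1%, Lcn2 51.0%, Camp 40.2%, Ltf 34.6%, Mpo 32.5% and both Elane and Ngp 20.6%. The part of brightness in these values was not tested.

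Other neutrophil genes from lists set by maturation stage showed that the highest calls lay outside the granules. Of 19 tested genes of mature neutrophils, 8 were called higher at 1 dpi and 6 at 3 dpi, with 17 and 10 higher past the adjusted p; over the 7 scalings 2 to 8 were called higher at 1 dpi and 5 to 6 at 3 dpi. None was called lower in limma at either time (0 and 3 lower past the adjusted p, as many as at an unadjusted p under 0.05), but 9 were at 1 dpi with the spike-ins as the scale. Stfa1 and Stfa3, which code for stefin A inhibitors of cysteine proteases, stood highest at 1 dpi (3.70 and 3.62) and at 3 dpi (3.74 and 3.54), and both were called higher at both times in 7 of 7 scalings. Il1r2, a decoy receptor for interleukin-1, was at 2.24 and 1.25, and it was called in 6 of the 7 scalings at 1 dpi and in 7 at 3 dpi. Stfa2l1 was at 2.16 and 1.96 and Stfa2 at 2.08 at 3 dpi, and whether probes for such closely related stefin genes read each other's RNA was not tested. The list's median was 0.86 at 1 dpi and 0.48 at 3 dpi, and relative to all genes it was above 0 in 4 of the 4 distinct scalings (0.34 to 0.68 and 0.36 to 0.47). Its summed level was 8.61, 8.66 and 8.66 in Ctrl, 9.50, 9.44 and 9.43 at 1 dpi and 8.89, 8.84 and 8.83 at 3 dpi, with Retnlg the brightest.

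Of 15 further specific- and gelatinase-granule genes, 1 was called higher at 1 dpi, Mmp9 (gelatinase B), at 1.004 with 0.56 from its lowest probe and a call in 1 of the 7 scalings. At 3 dpi 0 were called in limma, where 3 were higher and 1 lower at an unadjusted p under 0.05. Past the adjusted p at 1 dpi stood 10 (higher) and 3 (lower) of the 15, and 2 (higher) and 1 (lower) at 3 dpi. Over the 7 scalings, 0 to 11 of them were called lower at 1 dpi, 11 with the spike-ins. Of 8 early neutrophil genes, 1 was called at each time: Hdc (histidine decarboxylase), at 1.23 at 1 dpi (probes from 0.88 to 1.32, called in 3 of 7 scalings), and Ctsc at 1.99 at 3 dpi. Over the 7 scalings, 0 to 7 of these 8 genes were called lower at 1 dpi. Ctsc codes for cathepsin C, the protease that activates the granule serine proteases, and it was called at 3 dpi in 7 of 7 scalings, beside the 0.23 of Prtn3 and the 0.16 of Ctsg. Of all genes, 12.3% were called higher at 1 dpi and 6.98% at 3 dpi. The medians were 0.44 and 0.045 for the specific- and gelatinase-granule genes and 0.37 and 0.25 for the early genes, against 0.25 and 0.11 for all genes. Relative to all genes, the first list was above 0 in 3 of the 4 distinct scalings at 1 dpi (−0.067 to 0.20) and in 1 at 3 dpi (−0.068 to 0.021), and the early genes in 3 (−0.16 to 0.32) and 4 (0.14 to 0.38). Their summed levels at 1 dpi were 10.03, 9.95 and 9.95 (9.54, 9.53 and 9.51 in Ctrl, 9.67, 9.55 and 9.63 at 3 dpi, Lyz2 brightest) and 8.37, 8.39 and 8.40 (7.99, 7.80 and 7.78 in Ctrl, 8.20, 8.16 and 8.15 at 3 dpi, Srgn brightest).

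Of 11 transcription factors of granulopoiesis, 0 were called higher in limma at either time, where 1 and 2 were higher at an unadjusted p under 0.05. At each time 1 was called lower and 4 were lower past the adjusted p, as many as at an unadjusted p under 0.05. Runx1 was at −1.001 at 1 dpi by its brightest probe, just past the minimum, while another of its probes gave 0.85. Gfi1b, a repressor active in the megakaryocyte and erythroid lineages, was at −1.19 at 3 dpi, called in 7 of 7 scalings. The medians were −0.084 at 1 dpi and −0.11 at 3 dpi, and relative to all genes they were below 0 in the 4 distinct scalings at both times. Over the 7 scalings, 0 to 10 were called lower at 1 dpi. Summed levels were 7.70, 7.62 and 7.59 in Ctrl, 7.57, 7.59 and 7.56 at 1 dpi and 7.60, 7.50 and 7.48 at 3 dpi, with Cebpe the brightest.

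Markers of other marrow cells moved beside the granule genes, several of them by more. Of 18 megakaryocyte markers, 0 were called at either time in limma. At an unadjusted p under 0.05 stood 4 (higher) and 7 (lower) of them at 1 dpi, 7 (higher) and 2 (lower) at 3 dpi. Pf4 was at 0.094 at 1 dpi (above 0 in 2 of 7 scalings). Itga2b was at 0.69 and Gp5 at −0.54 at 1 dpi, the first above the median of all genes and the second below it in the 4 distinct scalings. Over the 7 scalings, 0 to 17 of the 18 were called lower at 1 dpi (11 unscaled and 17 with the spike-ins) and 0 to 1 at 3 dpi. Relative to all genes, their median was below 0 in the 4 distinct scalings at 1 dpi (−0.53 to −0.31) and at 3 dpi (−0.082 to −0.0070). Of 8 monocyte markers, 1 was called higher at 1 dpi (Cd14, 1.66) and 3 at 3 dpi, led by the chemokine receptor gene Ccr2 (1.63). Monocyte markers summed to 7.55, 7.37 and 7.36 in Ctrl, 8.04, 7.99 and 7.96 at 1 dpi and 7.80, 7.73 and 7.77 at 3 dpi (Ly6c2 brightest). Of 12 macrophage markers, 4 were called higher and 1 lower (Cd163, −2.07) at 1 dpi and 9 higher at 3 dpi, led by Siglec1 (2.84) and the complement gene C1qb (2.51). Macrophage markers summed to 5.84, 5.67 and 5.63 in Ctrl, 6.12, 6.05 and 6.13 at 1 dpi and 7.13, 7.12 and 7.08 at 3 dpi (Vcam1 brightest), so their highest group was 3 dpi, unlike that of S100a8, S100a9 and Mpo with the same scaling. Over the 7 scalings, 0 to 1 monocyte and 0 to 4 macrophage markers were called higher at 1 dpi, with up to 7 and 8 called lower with the spike-ins, and 2 to 5 and, in each scaling, 9 were called higher at 3 dpi.

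Of 13 tested eosinophil, basophil and mast cell markers, 3 were called higher at 1 dpi (Prss34 2.10, Mcpt8 1.64 and Fcer1a 1.14, all of basophils or mast cells) and 1 at 3 dpi (Prss34, 1.17). Their summed level, led by the eosinophil granule gene Prg2, was highest at 1 dpi, as was that of the later granule genes: 9.76, 9.81 and 9.76 in Ctrl, 10.64, 10.55 and 10.57 at 1 dpi and 9.99, 9.88 and 9.94 at 3 dpi, beside 10.49, 10.39 and 10.37 at 1 dpi and 9.88, 9.71 and 9.82 at 3 dpi. At 3 dpi the marker arrays all lay above Ctrl, whereas those of the later granule genes overlapped with it. The primary-granule genes summed to 9.68, 9.59 and 9.60 at 1 dpi and 9.08, 8.94 and 8.97 at 3 dpi. Of 10 B cell markers, 9 were called lower at each time, and Vpreb3 stood at −5.42 at 1 dpi. B cell markers summed to 4.89, 4.81 and 4.84 in Ctrl, 2.56, 2.50 and 2.54 at 1 dpi and 2.52, 2.48 and 2.48 at 3 dpi (Cd79b brightest). Of 9 T and NK cell markers, 1 was called higher at 1 dpi (Ncr1, 1.02) and 3 at 3 dpi (Klrb1c, 1.97, furthest). They summed to 4.93, 5.01 and 4.94 in Ctrl, 5.47, 5.37 and 5.38 at 1 dpi and 5.22, 5.07 and 5.04 at 3 dpi (Nkg7 brightest). Nkg7 alone made up 88.2% to 92.2% of the sum. Of 7 tested dendritic cell markers, 2 were called higher and 2 lower at 1 dpi (Bst2 1.34, Cd209a −1.97) and 1 lower at 3 dpi (Flt3, −2.14, probes from −2.14 to −0.081), and the probes of Siglech, the brightest, ranged from −1.61 to 1.08 at 1 dpi. Dendritic cell markers summed to 4.55, 5.23 and 5.26 in Ctrl, 6.06, 5.97 and 5.94 at 1 dpi and 5.23, 5.13 and 5.11 at 3 dpi. Over the 7 scalings, 7 to 10 B cell markers were called lower at 1 dpi, while calls higher at 1 dpi ranged from 0 to 3 for the eosinophil, basophil and mast cell list and from 0 to 2 for the T and NK cell and dendritic cell lists. Calls lower at 1 dpi ranged from 0 to 7, from 0 to 6 and from 2 to 4 for these lists in that order.

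Of 10 erythroid markers, 2 were called higher and 7 lower at 1 dpi (Ahsp, −7.62) and 8 lower at 3 dpi. Summed levels were 6.76, 6.47 and 6.52 in Ctrl, 7.95, 7.66 and 7.64 at 1 dpi and 5.16, 5.18 and 5.07 at 3 dpi (Hba-a1 brightest). Hba-a1 alone made up 96.7%, 96.4% and 96.3% of the sum at 1 dpi. Of 8 stem and progenitor cell markers, 4 were called lower at 1 dpi (Hlf, −1.46) and 5 at 3 dpi (Meis1, −2.24). Stem cell markers summed to 5.74, 5.71 and 5.67 in Ctrl, 5.25, 5.25 and 5.28 at 1 dpi and 4.54, 4.50 and 4.45 at 3 dpi (Cd34 brightest). Flt3 is on this list and the dendritic cell list. Of 10 stromal and endothelial markers, 6 were called higher at 1 dpi and 7 at 3 dpi, among them Cxcl12 (2.71 at 1 dpi), the brightest, and the adipocyte hormone gene Adipoq (4.23 at 3 dpi). Stromal and endothelial markers summed to 3.53, 3.45 and 3.51 in Ctrl, 5.73, 5.52 and 5.63 at 1 dpi and 6.60, 6.46 and 6.57 at 3 dpi. Of 12 proliferation genes, 0 were called at either time in limma, with 1 higher and 6 lower at an unadjusted p under 0.05 at 1 dpi and 3 higher at 3 dpi. Proliferation genes summed to 7.80, 7.67 and 7.63 in Ctrl, 7.49, 7.52 and 7.54 at 1 dpi and 7.89, 7.83 and 7.80 at 3 dpi (Birc5 brightest). Over the 7 scalings at 1 dpi, 5 to 7 erythroid and 4 to 7 stem cell markers were called lower, as were 0 to 12 of the 12 proliferation genes (12 with the spike-ins), and 1 to 6 stromal markers higher. The part of these other cells in the levels of the granule genes was not tested.

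**Figure D5:**
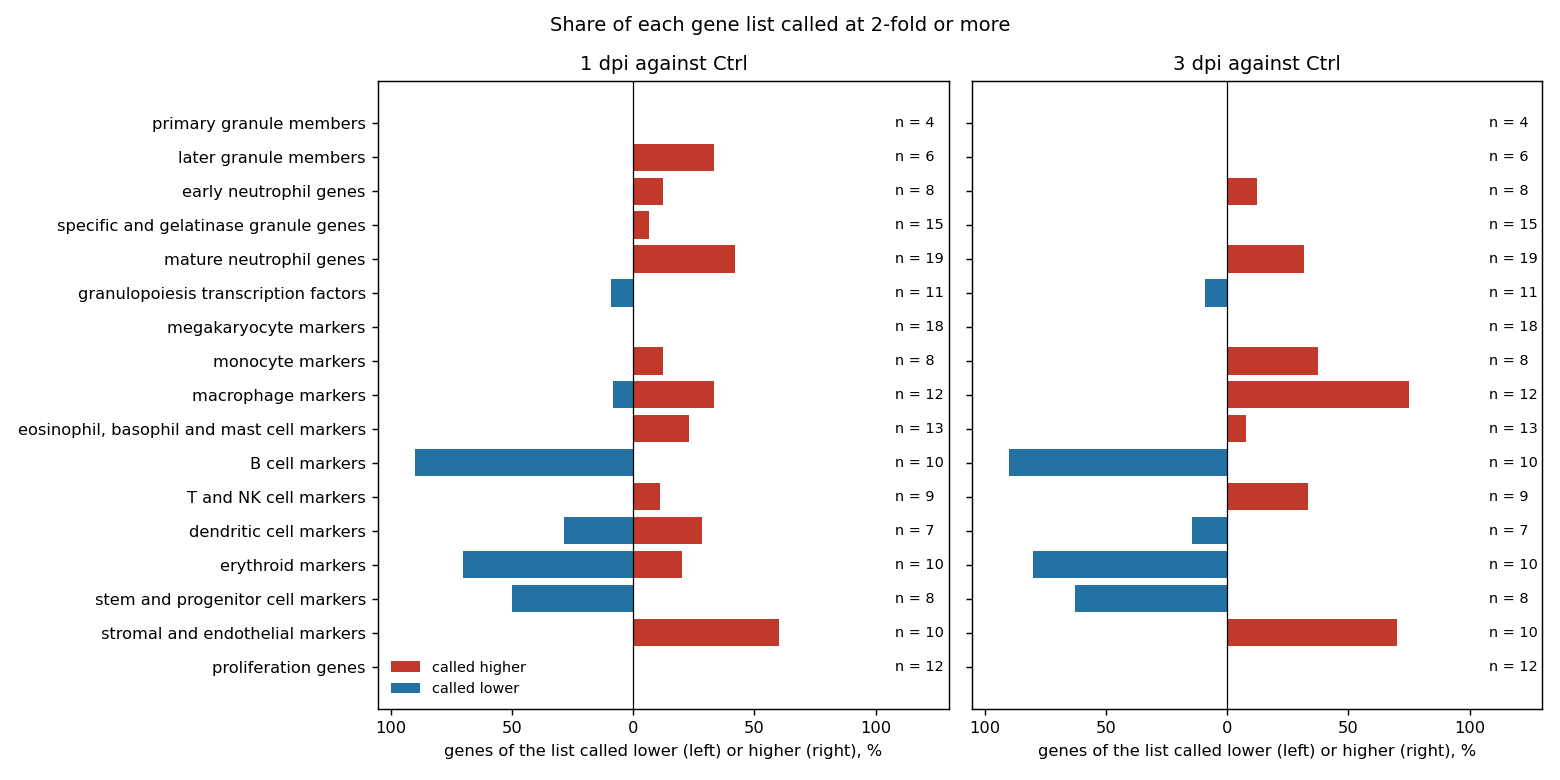
Percent of the tested genes of each list called higher or lower (limma adjusted p and 2-fold) at 1 dpi and 3 dpi against Ctrl, with the number of genes tested. The primary-granule genes have 0 of 4 calls at both times and the later genes 2 of 6 at 1 dpi, beside 8 of 19 mature neutrophil genes. Of all genes, 12.3% are called higher and 2.87% lower at 1 dpi, and 6.98% and 1.82% at 3 dpi. Of the 6, 0 are called in limma under quantile normalization, with array medians or in the authors' table.

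By pattern over the 9 arrays, the primary-granule genes were most like Hic1, Ccl9 and Kcne1 (Pearson r = 0.990 for each), Gbp2 and Cd33 (0.989 for both), out of 23997 genes compared. Prtn3 itself correlated negatively with the others of its class (Elane −0.43, Mpo −0.27 and Ctsg −0.048), so that profile does not describe it. The later genes were most like the histone gene H2ac1 (0.999), the ribosomal protein genes Rpl11 (0.998) and Rpl36a (0.997) and 2 features without a gene name. Ngp fits that profile poorly, with r from −0.15 (Lcn2) to 0.33 (Ltf) to the other later genes, which correlated among themselves at 0.87 to 0.995. Arrays of a group share their condition and brightness, so these correlations describe 9 arrays in 3 groups and nothing more.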

How the data were processed

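RNA of bone marrow mMKs from 3 control, 3 1 dpi and 3 3 dpi experiments on male mice was labelled with Cy3 and read on 9 Agilent arrays. The methods of the study name an Affymetrix chip, so their array steps were not taken as those of these data. The deposited intensity values are spot signals from Agilent Feature Extraction 10.7.1.1, background-subtracted and detrended within each array by the authors without any scaling from array to array. A log2 table of 27275 gene names was deposited too, whose column medians were 5.84, 5.84 and 5.83 (Ctrl), 5.80, 5.80 and 5.79 (1 dpi) and 5.86, 5.86 and 5.87 (3 dpi). How that table was made is not given in the sources used here; its values for the granule genes lay within 0.025 of quantile-normalized intensities, for Mpo those of the dimmer probe.

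Each array held 62976 spots, of which 3671 controls were removed, and outlier spots were left out. Spots of a probe were averaged on the log2 scale after subtraction of each array's 75th percentile. Of 56605 probes, 20 lacked a usable spot on some array and were removed. Tested were probes that in some group were well above background on each of its 3 arrays, the brightest probe standing for a gene. Names were matched to RefSeq accessions (GRCm38.p6) for 32994 probes and otherwise taken from the files, giving 37325 names and 29410 genes tested. Groups were compared in R 4.3.3 with limma 3.58.1 (lmFit and eBayes over all 9 arrays, Benjamini-Hochberg adjustment over all genes); data were read with data.table (version 1.17.8) and plotted with Python 3.11.15, pandas 2.3.3 and matplotlib 3.10.9. A call needed an adjusted p under 0.05 and at least a 2-fold change. The procedure was tested on simulated data.

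A list's level is the log2 of its summed scaled intensities. Besides the 10 members, the text names genes called in each list, at most the 4 with the largest change, the brightest gene where none was called, Itga2b, Gp5 and Pf4, and for each class the 5 genes with the highest correlation; a few more were named after their values were seen. Not tested were BC100530, Gm5483, Tpsab1 and Xcr1. The members and lists were chosen with earlier results of these data known.

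Alternatives were quantile normalization, array medians, normexp (offset 50), other filters on dim probes, the mean of a gene's probes, the authors' log2 table, only the 6 arrays compared, a replicate block, the slide as a block, eBayes with trend and robust settings, no minimum fold change, the methods' t-test, and leaving out each array. Unscaled intensities, spike-in scaling and the later class without S100a8 and S100a9 were chosen after seeing the data.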

Additional observations from a re-analysis of the deposited data

Results flagged for a closer look

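With the 75th percentile as the scale, the response at 1 dpi and at 3 dpi differed for 8 of the 10 granule genes, and the difference itself was tested between the irradiated groups in limma, with 3 arrays in each and the same controls behind both responses. Past the adjusted p in that comparison, 24.9% of all genes were lower and 19.8% higher. S100a8 was −0.98 on the log2 scale at 3 dpi relative to 1 dpi (adjusted p = 0.000231), S100a9 −0.92 (0.000306) and Mpo −0.92 (9.55e-05). Ctsg was at −0.53 (0.000377), Camp at −0.53 (0.000615), Ltf at −0.48 (0.00133), Lcn2 at −0.32 (0.0131) and Elane at −0.24 (0.02). The second probe of Mpo gave −0.51 (limma adjusted p = 0.00222), and that of Lcn2 did not pass (−0.19, 0.0683). With the 75th percentile as the scale, arrays of 3 dpi and 1 dpi did not overlap, whether higher or lower, for 65.5% of all genes. With this scale, all 3 arrays of 3 dpi lay below all 3 of 1 dpi for each of the 8 granule genes. The direction depended on the scaling. With array medians and with normexp all 8 stayed below 0, and 5 and 7 of them passed as lower in limma. Under quantile normalization Elane (0.33, limma adjusted p = 0.00574), Lcn2 (0.37, 0.00571), Camp (0.22, 0.0107), Ctsg (0.19, 0.0159) and Ltf (0.20, 0.0177) passed as higher at 3 dpi, and these 5 also did so in the authors' table. Mpo, S100a8 and S100a9 stayed below 0 in both, where of the 3 only S100a8 passed (limma adjusted p = 0.0182 and 0.0343). Unscaled and with the spike-ins all 8 were above 0, and with the spike-ins all 8 passed as higher. With the spike-ins 24726 of the 29410 genes tested were called, 99.6% of them higher. The part of array brightness in these differences was not tested.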

How the results depend on the processing

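Calls of granule genes kept to their main number (2 at 1 dpi, 0 at 3 dpi and 0 between the times) with other filters on dim probes, probe means, only the 6 arrays compared, a trended variance and the methods' t-test, unadjusted and after Benjamini-Hochberg adjustment. The number called at 1 dpi was 0 with quantile normalization, array medians and the authors' table, 1 with normexp (S100a8), the slide as a block (S100a8) and unscaled intensities (Ngp, lower), 6 with the spike-ins (all lower) and 8 with no minimum fold. At 3 dpi it was 1 with no minimum fold, and between the times it was 8 with no minimum fold, 2 unscaled and 7 with the spike-ins. Leaving out 1 array gave 1 to 2, 0 and 0 to 1. Of all 29410 genes tested, 21204 were called at 1 dpi (1.25% of them higher) and 24726 between the times with the spike-ins. With no minimum fold, 16443, 9416 and 13125 of all genes were called at 1 dpi, at 3 dpi and between the times. The slide block in effect leaves out Ctrl replicate 1, which was alone on its slide. No minimum fold widens the call by its construction, and for the other changes the cause was not tested.

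Over all genes, 4468 were called at 1 dpi (81.1% of them higher), 2587 at 3 dpi (79.4%) and 2588 between the times (45.2%). These became 2437, 1284 and 1349 with normexp, 16443, 9416 and 13125 with no minimum fold, 11487 at 1 dpi and 13466 between the times unscaled, 21204 and 24726 with the spike-ins, and 4489 between the times with no filter on dim probes. Without 1 array each they ranged from 3561 to 5367, 2347 to 2768 and 2264 to 2812. The share higher at 1 dpi was 56.2% with quantile normalization, 48.8% with array medians, 49.8% in the authors' table, 4.75% unscaled and 1.25% with the spike-ins. Between the times it was 62.9%, 67.2%, 62.7%, 98.9% and 99.6% in that order, 33.1% with normexp and 26.7% with no filter on dim probes, and at 3 dpi it was 66.9% in the authors' table.

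Unscaled intensities, spike-in scaling and the later class without S100a8 and S100a9 were alternatives chosen after seeing the data. Log2 fold changes of single granule genes changed sign as follows. Under quantile normalization, the sign turned at 1 dpi for Camp −0.24, Ctsg −0.018, Elane −0.43, Lcn2 −0.32, Ltf −0.20, Mpo −0.0009, Ngp −0.45 and Prtn3 −0.12, at 3 dpi for Camp −0.013 and Ltf −0.0078, and between the times for Camp 0.22, Ctsg 0.19, Elane 0.33, Lcn2 0.37, Ltf 0.20 and Ngp 0.36. In the authors' log2 table, the sign turned at 1 dpi for Camp −0.26, Ctsg −0.031, Elane −0.44, Lcn2 −0.34, Ltf −0.21, Mpo −0.19, Ngp −0.46 and Prtn3 −0.12, at 3 dpi for Camp −0.014 and Ltf −0.0094, and between the times for Camp 0.25, Ctsg 0.21, Elane 0.33, Lcn2 0.39, Ltf 0.21 and Ngp 0.36. Unscaled, the sign turned at 1 dpi for Camp −0.48, Ctsg −0.34, Elane −0.86, Lcn2 −0.66, Ltf −0.55, Mpo −0.12, Ngp −1.02, Prtn3 −0.97 and S100a9 −0.018, at 3 dpi for Mpo 0.041, and between the times for Camp 0.55, Ctsg 0.55, Elane 0.84, Lcn2 0.77, Ltf 0.61, Mpo 0.16, Ngp 1.01, S100a8 0.11 and S100a9 0.16. With the spike-ins, the sign turned at 1 dpi for Camp −1.12, Ctsg −0.98, Elane −1.50, Lcn2 −1.30, Ltf −1.19, Mpo −0.76, Ngp −1.66, Prtn3 −1.61, S100a8 −0.53 and S100a9 −0.66, at 3 dpi for Ltf −0.014, and between the times for Camp 1.13, Ctsg 1.13, Elane 1.42, Lcn2 1.34, Ltf 1.18, Mpo 0.74, Ngp 1.58, S100a8 0.68 and S100a9 0.74. With array medians, the sign turned at 1 dpi for Elane −0.13, Ngp −0.30 and Prtn3 −0.25, at 3 dpi for Camp −0.098, Lcn2 −0.067, Ltf −0.12 and S100a9 −0.024, and between the times for Ngp 0.11. With normexp, the sign turned at 1 dpi for Ngp −0.11 and Prtn3 −0.016, at 3 dpi for Mpo 0.013, and between the times for Ngp 0.044. With the slide as a block, the sign turned at 1 dpi for Ngp −0.12, and at 3 dpi for Ltf −0.028 and Mpo 0.015. Without 1 array each, values crossed 0 for Ngp at 1 dpi (−0.12 to 0.11) and, at 3 dpi, for Ngp (−0.20 to 0.031), Camp (−0.011 to 0.068), Ltf (−0.043 to 0.054) and Mpo (−0.065 to 0.033). Of the values that kept their sign, 626 also kept their call, 18 were newly called (15 of them with no minimum fold) and 11 lost it. The cause was not tested.

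Primary minus later medians (−0.081 at 1 dpi, 0.037 at 3 dpi and 0.12 between the times) ranged without 1 array from −0.11 to −0.037, from 0.022 to 0.058 and from 0.094 to 0.14. Under quantile normalization they were 0.15 at 1 dpi and 0.0065 between the times, in the authors' table they were 0.082 at 1 dpi, −0.014 at 3 dpi and −0.0005 between the times, with probe means −0.13 at 1 dpi and −0.013 at 3 dpi, and without S100a8 and S100a9 0.0089 at 1 dpi and 0.010 between the times. Scalings by a constant per array leave these differences as they are. With a replicate block, 4273, 2498 and 2494 genes were called at 1 dpi, at 3 dpi and between the times, and 2, 0 and 0 granule genes, so it changed no call of theirs. Deviations of same-numbered arrays correlated at −0.11 to 0.13 (9 pairs) and those of other pairs at −0.15 to 0.10 (18 pairs), and not every array correlated best with its own number. No pairing by number was thus seen, but deviations from means of 3 arrays cannot exclude one. The granule genes were well above background everywhere, and 3 arrays a group limit the precision.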
